A study of Mus musculus with 2 samples.

Results

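The accessibility of 10 genes that define inhibitory neurons was followed here: Gad1, Gad2, Slc32a1, Dlx1, Dlx2, Dlx5, Dlx6, Lhx6, Erbb4 and Adarb2, out of 21851 protein-coding genes. These code for GABA synthesis and loading, developmental transcription factors, a receptor and an RNA-binding protein. They were chosen by name, with earlier results of these data known. Every peak, footprint and accessible interval within the gene body and 20 kb to each side was taken. The data were DNase-seq of nuclei from hippocampal tissue (labelled as a layer, which is not named) of male B6CASTF1/J mice aged 8 to 10 months, all in 1 group with no second condition. Replicate 1 and replicate 2 were each a pool of 2 biosamples. They carry the same donor label, and the labels do not say whether the pools have animals in common, so the spread between them may be partly technical.

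DNase I cuts DNA that is not covered by nucleosomes, so a peak of cuts marks an accessible element, and a short protected stretch within it, a footprint, marks DNA shielded by a protein. GABAergic interneurons arise in the embryonic ganglionic eminences, where DLX homeodomain factors are known to switch on the genes of GABA synthesis and to direct migration, and LHX6 to specify the medial branch of the lineage. In the adult hippocampus such interneurons are a minority among excitatory pyramidal and granule cells. The tissue was measured in bulk, so fewer cells of a type and less accessibility per cell cannot be told apart in any value here.

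Replicate 1 had 144270 peaks and replicate 2 had 124426, with median heights of 0.643 and 0.639 in the authors' units, whose scale is not stated. The smallest step between heights was 0.00656 in replicate 1 and 0.00646 in replicate 2, and 1 step was treated as 1 cut, which puts 98 and 99 cuts behind a peak of median height. Intervals given for heights are 95% Poisson intervals on those steps and cover counting error only. All 6 marker genes of hippocampal neurons had a promoter peak in both replicates, as did 5 of 6 astrocyte, 5 of 6 oligodendrocyte and 2 of 6 microglial markers.

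The promoters of the inhibitory genes were open in both replicates, in a single replicate or in neither. A promoter was called open in a replicate when a peak lay within 1000 bp of a start site of a coding transcript. By that rule 5 of the 10 genes were open in both replicates (Gad1, Gad2, Dlx5, Erbb4 and Adarb2), beside 62.6% of all coding genes, a share too near for a list of 10 genes to be told from it. Slc32a1 was open in replicate 1 alone and Lhx6 in replicate 2 alone. Dlx1, Dlx2 and Dlx6 had no promoter peak in either, though Dlx1 would be open in both from its RefSeq start, as given below. The genes open in each single replicate numbered 6 of 10 in replicate 1, beside 64.9% of coding genes, and 6 of 10 in replicate 2, beside 63.7%.

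Openness was not ordered by CpG content among the 10 genes. CpG-rich promoters (CpG observed over expected of at least 0.6 and GC of at least 50% within 500 bp of a start) are as a class usually accessible across tissues. Of the 10 genes 8 were CpG-rich, all but Dlx1 and Adarb2. Open in both replicates were 4 of those 8, beside 94.2% of the 10719 CpG-rich coding genes, and 6 of the 8 were open in at least 1 replicate, beside 96.0%. Adarb2, with a CpG ratio of 0.438 and a GC of 52.5%, had the tallest promoter peak of the 10. Dlx2 and Dlx6, with ratios of 0.763 and 0.756, had none.

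**Figure D1:**
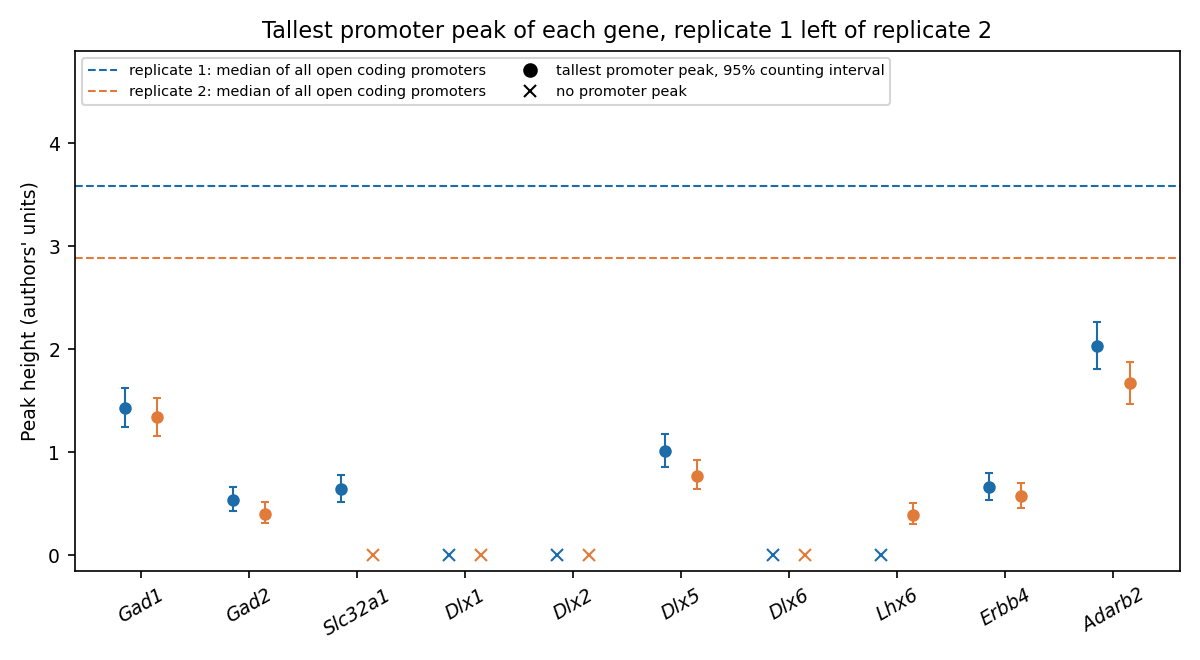
Height of the tallest promoter peak (y axis, authors' units) of each of the 10 genes in replicate 1 (blue, left) and replicate 2 (orange, right), with 95% counting intervals as bars and a cross at 0 where no promoter peak was called; dashed lines are the medians over all coding genes open in both replicates. Every measured height lies below those medians of 3.59 and 2.89, and Adarb2 with 2.03 and 1.67 and Gad1 with 1.43 and 1.34 stand highest.

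Among open promoters the inhibitory genes stood low. The plot of promoter peaks shows all measured heights under the medians of the open coding promoters, 3.59 in replicate 1 and 2.89 in replicate 2. Adarb2 ranked at percentile 32.6 in replicate 1 and 31.2 in replicate 2 of all open promoters. Gad2 ranked at percentile 7.03 and 3.94. No test between lists was possible with 2 samples of 1 group, and the ranks are a description.

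Gad1 was the most open of the genes of GABA synthesis. It encodes a glutamate decarboxylase that is spread through the cell and makes most of the GABA of the brain. The gene lies on the plus strand at chr2:70553072-70602014 of GRCm38 (mm10), and both replicates had 10 peaks in its window, 9 of them overlapped by the other replicate. Its window held 1.12 peaks per 10 kb in each replicate, at percentile 71.5 of coding genes.

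The tallest promoter peak of Gad1, at chr2:70561101-70561320 and centred 831 bp upstream of a coding start, had a height of 1.43 (1.25 to 1.63) in replicate 1 and 1.34 (1.16 to 1.53) in replicate 2. The intervals overlapped. A second peak covered the start itself, at chr2:70561965-70562438, with 0.715 in replicate 1 and 0.743 in replicate 2. A site 202 bp downstream of a coding start was called in replicate 1 alone at 0.617.

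Taller than either promoter peak was a site 3721 bp upstream of the coding start, inside an intron of the longest Gad1 gene model. It reached 2.97 in replicate 1 and 3.11 in replicate 2. Of the 11 Gad1 sites, 6 had a height of at least 1 in both replicates, more than in any other window of the 10 genes. Besides the promoter peak and the upstream site these were intronic sites 4619 bp (1.11 and 1.16), 25500 bp (1.12 and 1.0) and 29732 bp (1.21 and 1.1) downstream of a start and a site in the 3′ flank (1.21 and 1.14), each given as replicate 1 and replicate 2. The upstream site is printed because it was the tallest pair in the Gad1 window, with the 49 of 160 bases that lay in footprints of both replicates in capitals.
Gad1 upstream site (chr2:70558241-70558400, plus strand): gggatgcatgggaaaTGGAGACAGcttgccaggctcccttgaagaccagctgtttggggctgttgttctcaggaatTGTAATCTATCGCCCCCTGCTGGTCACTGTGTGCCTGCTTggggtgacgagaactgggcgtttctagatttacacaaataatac

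Gad2 was less accessible than Gad1, and its promoter height interval did not overlap that of the tallest Gad1 promoter peak in either replicate. The Gad1 peak over the start itself had intervals of 0.587 to 0.863 in replicate 1 and 0.613 to 0.891 in replicate 2. In replicate 1 that interval did overlap the one of Gad2. Gad2 encodes the glutamate decarboxylase enriched at nerve terminals. The gene spans 71.7 kb at chr2:22622205-22693874 (plus strand), with 4 peaks in its window in replicate 1 and 2 in replicate 2. Its promoter peak, chr2:22622353-22622723, had a height of 0.538 (0.428 to 0.668) in replicate 1 and 0.407 (0.313 to 0.52) in replicate 2, or 82 and 63 steps. In replicate 2 a second promoter peak of the same height, 0.407, overlapped the peak of replicate 1 as well.

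Beyond its promoter the Gad2 gene body held 0 peaks in both replicates. The other 3 peaks of replicate 1, with heights of 0.203 to 0.276, lay in the 3′ flank and had no counterpart in replicate 2. At 0.358 peaks per 10 kb in replicate 1 and 0.179 in replicate 2, the window ranked at percentile 19.9 of coding genes. No peak of the Gad2 window reached a height of 1, whereas 6 pairs of the Gad1 window did.

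Slc32a1 was open inside the gene rather than reproducibly at its start. It encodes the transporter that loads GABA and glycine into synaptic vesicles, and is a compact gene of 4.98 kb at chr2:158610767-158615748 (plus strand). Replicate 1 had 8 peaks in its window and replicate 2 had 5, and each of those 5 had a counterpart. The start was covered by a peak of 0.643 (0.522 to 0.784) in replicate 1, beside a smaller one of 0.459, while the nearest peak edge of replicate 2 was 2051 bp away.

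The tallest site of the gene itself was centred 2964 bp downstream of the start, where it reached into a coding exon, with 1.17 in replicate 1 and 1.29 in replicate 2. A lower site 2100 bp from the start had 0.466 in replicate 1 and 0.588 in replicate 2. A site 19356 bp upstream had 0.925 and 0.697, and another 15402 bp upstream had 0.532 and 0.491. The tallest peak of any of the 10 windows, 4.34 in replicate 1 and 3.36 in replicate 2, also fell in the 3′ flank of Slc32a1, but it was the promoter of the neighbour Actr5. The site is printed because it was the tallest in the gene, with the 40 bases in footprints of both replicates in capitals. It is labelled by the exon it reaches into, and which printed bases are exonic is not marked.
Slc32a1 exonic site (chr2:158613621-158613840, plus strand): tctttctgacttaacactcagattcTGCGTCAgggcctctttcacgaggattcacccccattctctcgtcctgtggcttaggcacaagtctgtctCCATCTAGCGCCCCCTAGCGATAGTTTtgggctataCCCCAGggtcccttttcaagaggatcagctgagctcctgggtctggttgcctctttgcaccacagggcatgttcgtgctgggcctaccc

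**Figure D2:**
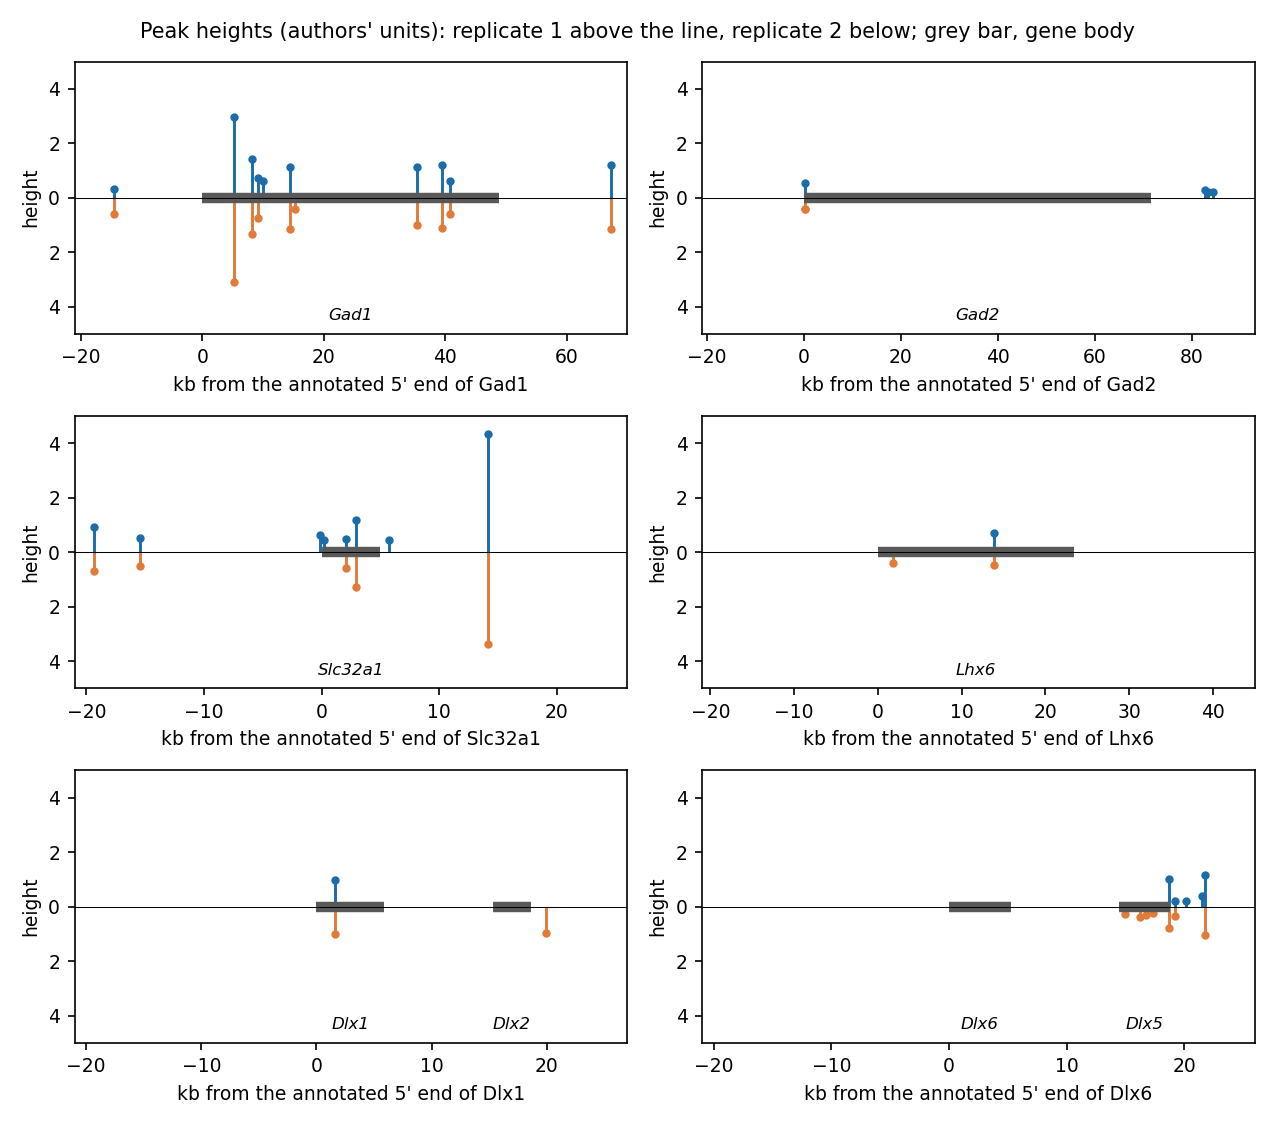
Peak heights (y axis, authors' units) against distance in kb from the annotated 5′ end of the gene named on each x axis, with replicate 1 in blue above the line, replicate 2 in orange below it and gene bodies as grey bars. Gad1 carries sites of 1 or more along its length, Gad2 a promoter site of 0.538 and 0.407 and none in its body, and the stretches between Dlx1 and Dlx2 and between Dlx6 and Dlx5 are empty.

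The DLX genes divided by locus: Dlx1 and Dlx2 had few sites, and Dlx5 had an open promoter with several sites around it. DLX1 and DLX2 are homeodomain factors that act in interneuron progenitors and precursors, and DLX5 and DLX6 follow them in the same cascade. In mouse the genes lie in convergent pairs that share regulatory DNA. Around Dlx1 and Dlx2, which span chr2:71528113-71546754 on opposite strands, replicate 1 had 1 peak and replicate 2 had 2.

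The shared Dlx1 and Dlx2 peak, chr2:71529610-71529819, had a height of 0.978 in replicate 1 and 1.01 in replicate 2 and overlapped an exon of Dlx1. Its edge was 1497 bp from the coding start in replicate 1 and 1527 bp in replicate 2, just past the promoter limit. RefSeq places the Dlx1 start at 71529445, and the edges then were 165 and 195 bp from it, in sequence with a CpG ratio of 0.783. With that start Dlx1 would count as open in both replicates, and as CpG-rich.

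Dlx2 had its nearest peak 1248 bp upstream in replicate 2, with a height of 0.956, while in replicate 1 the nearest edge was 16935 bp away. That peak, chr2:71548002-71548080, was the tallest of all peaks in the 10 windows that the other replicate did not overlap. The 9426 bp between Dlx1 and Dlx2 (chr2:71533982-71543407) held 0 peaks, 0 footprints and 0 bases at a false discovery rate of 0.05 or less in both replicates. In embryonic mouse forebrain such intergenic stretches are known to carry conserved enhancers.

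By the coding starts used here Dlx5 alone of the DLX genes had an open promoter, at chr6:6881801-6882220. Its height was 1.01 (0.857 to 1.18) in replicate 1 and 0.775 (0.642 to 0.927) in replicate 2. From its RefSeq start Dlx1 would be open as well, with 0.978 in replicate 1 and 1.01 in replicate 2. All peaks of the joint Dlx5 and Dlx6 window lay nearest to Dlx5. By peak density the Dlx5 and Dlx6 windows ranked at percentile 80.4 and 79.3, and those of Dlx1 and Dlx2 at percentile 22.1 and 23.0. Replicate 1 had 5 of them with 8 footprints and replicate 2 had 7 with 23 footprints. Replicate 2 had 4 peaks of 0.245 to 0.381 in the body of Dlx5 that replicate 1 lacked.

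The tallest pair near Dlx5 lay 3026 bp upstream, with 1.17 in replicate 1 and 1.03 in replicate 2. Dlx6 had its nearest peak edge 18467 bp away in replicate 1 and 14863 bp in replicate 2. The 9236 bp between Dlx6 and Dlx5 (chr6:6868569-6877804) held 0 peaks, 0 footprints and 0 listed bases in both replicates, as between Dlx1 and Dlx2. The files list only intervals at or under the limit, so weaker accessibility in these stretches was not measured here. The upstream site is printed because it stood above the Dlx5 promoter, with the 25 bases in footprints of both replicates in capitals.
Dlx5 upstream site (chr6:6885021-6885200, plus strand): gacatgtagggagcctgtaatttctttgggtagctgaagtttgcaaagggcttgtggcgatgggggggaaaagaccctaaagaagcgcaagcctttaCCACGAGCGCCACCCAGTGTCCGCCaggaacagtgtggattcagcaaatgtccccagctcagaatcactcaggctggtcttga

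Lhx6 had 1 site found in both pools. It encodes a LIM homeodomain factor that specifies and maintains interneurons of the medial ganglionic eminence, among them the parvalbumin and somatostatin classes. The gene spans 23.5 kb on the minus strand at chr2:36081953-36105408. Replicate 1 had 1 peak in the window and replicate 2 had 2.

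The pair overlapped a coding exon, with 0.689 in replicate 1 and 0.478 in replicate 2 and a GC of 68.9%. It was centred 12499 bp from the nearest coding start and 2712 bp from the nearest start of any transcript, also of Lhx6. The second peak of replicate 2, 0.394 (0.301 to 0.506), lay 452 bp from a start site, and the nearest peak edge of replicate 1 was 12360 bp away. The window ranked at percentile 18.4 by peak density. The pair is printed as that single shared site, with the 7 bases in footprints of both replicates in capitals. It is labelled by the exon it overlaps, and which printed bases are exonic is not marked.
Lhx6 exonic site (chr2:36091421-36091700, plus strand): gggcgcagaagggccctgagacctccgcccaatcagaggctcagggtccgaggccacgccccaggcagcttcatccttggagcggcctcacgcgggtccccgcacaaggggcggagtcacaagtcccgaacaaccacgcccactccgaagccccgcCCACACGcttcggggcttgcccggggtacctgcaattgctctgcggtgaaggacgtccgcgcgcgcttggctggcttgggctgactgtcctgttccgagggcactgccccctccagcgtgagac

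Erbb4 had a cluster of 9 of its 27 sites at its start, and its tallest pair by mean height lay in an intron away from that cluster. It encodes a receptor tyrosine kinase for neuregulins, which in the rodent hippocampus is found mainly on interneurons. The gene is the longest of the 10, 1080 kb on the minus strand at chr1:68032186-69108059. Replicate 1 had 23 peaks in its window and replicate 2 had 22, with 19 of each overlapped by the other.

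The cluster at the Erbb4 start ran from 69105156 to 69108680 and held 9 sites, 7 of them paired, with heights of 0.223 to 0.663 in replicate 1 and 0.336 to 0.575 in replicate 2. The tallest promoter peak among them had 0.663 (0.54 to 0.805) in replicate 1 and 0.575 (0.462 to 0.707) in replicate 2. Sites in the gene body outside the promoter, some of the cluster among them, had lower median heights of 0.289 in replicate 1 and 0.31 in replicate 2. At 0.206 and 0.197 peaks per 10 kb the window ranked at percentile 16.0, the lowest of the 10.

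The tallest Erbb4 site lay in an intron 220705 bp from the start, with 1.08 in replicate 1 and 0.801 in replicate 2. Another intronic site, 358575 bp from the start, had 0.584 in replicate 1 and 1.03 in replicate 2. Its ratio departed from the genome-wide median ratio by a log2 of -1.01. The tallest site is printed with the 16 bases in footprints of both replicates in capitals, 1 run of which contains CAGCTG and the other CATCTG, the reverse complement of CAGATG.
Erbb4 intronic site (chr1:68886941-68887160, plus strand): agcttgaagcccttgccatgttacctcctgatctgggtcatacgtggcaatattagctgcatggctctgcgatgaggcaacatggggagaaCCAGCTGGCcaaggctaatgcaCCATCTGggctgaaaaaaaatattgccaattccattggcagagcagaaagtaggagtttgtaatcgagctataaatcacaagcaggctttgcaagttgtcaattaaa

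Adarb2 was the most accessible of the 10 at its promoter and had the most sites. It encodes a brain-restricted RNA-binding protein of the adenosine deaminase family for which no editing activity is established, and its transcript marks interneurons of the caudal ganglionic eminence. The gene spans 566 kb on the plus strand at chr13:8202866-8768747. Replicate 1 had 33 peaks in its window and replicate 2 had 32, with 24 of each overlapped by the other.

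The Adarb2 promoter peak had 2.03 (1.81 to 2.27) in replicate 1 and 1.67 (1.47 to 1.88) in replicate 2, or 310 and 258 steps. Each replicate had 6 footprints in it. A site 4609 bp into the gene had 1.07 in replicate 1 and 0.936 in replicate 2. The window held 0.545 peaks per 10 kb in replicate 1 and 0.528 in replicate 2, at percentile 34.5.

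The tallest Adarb2 site was intronic, 203329 bp from the start, and exceeded the promoter in both replicates, with 3.0 in replicate 1 and 2.1 in replicate 2. A site 185859 bp from the start had 1.1 in replicate 1 and 0.555 in replicate 2. After scaling that was the pair most shifted towards replicate 1, by a log2 of 0.79. The upstream part of the promoter peak and the intronic site are printed as the 2 tallest sites of the gene. Capitals are bases in footprints of both replicates, 1 in the part of the promoter peak shown and 29 in the intronic site.
Adarb2 promoter, upstream of the start (chr13:8202681-8202865, plus strand): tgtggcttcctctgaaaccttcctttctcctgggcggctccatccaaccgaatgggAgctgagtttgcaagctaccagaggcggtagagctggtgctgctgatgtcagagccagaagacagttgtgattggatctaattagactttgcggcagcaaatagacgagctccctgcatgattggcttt
Adarb2 intronic site (chr13:8406121-8406380, plus strand): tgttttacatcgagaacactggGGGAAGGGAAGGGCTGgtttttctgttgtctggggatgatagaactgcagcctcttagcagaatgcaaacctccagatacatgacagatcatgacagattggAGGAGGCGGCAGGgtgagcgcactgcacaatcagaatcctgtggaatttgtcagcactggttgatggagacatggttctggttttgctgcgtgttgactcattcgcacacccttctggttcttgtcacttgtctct

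**Figure D3:**
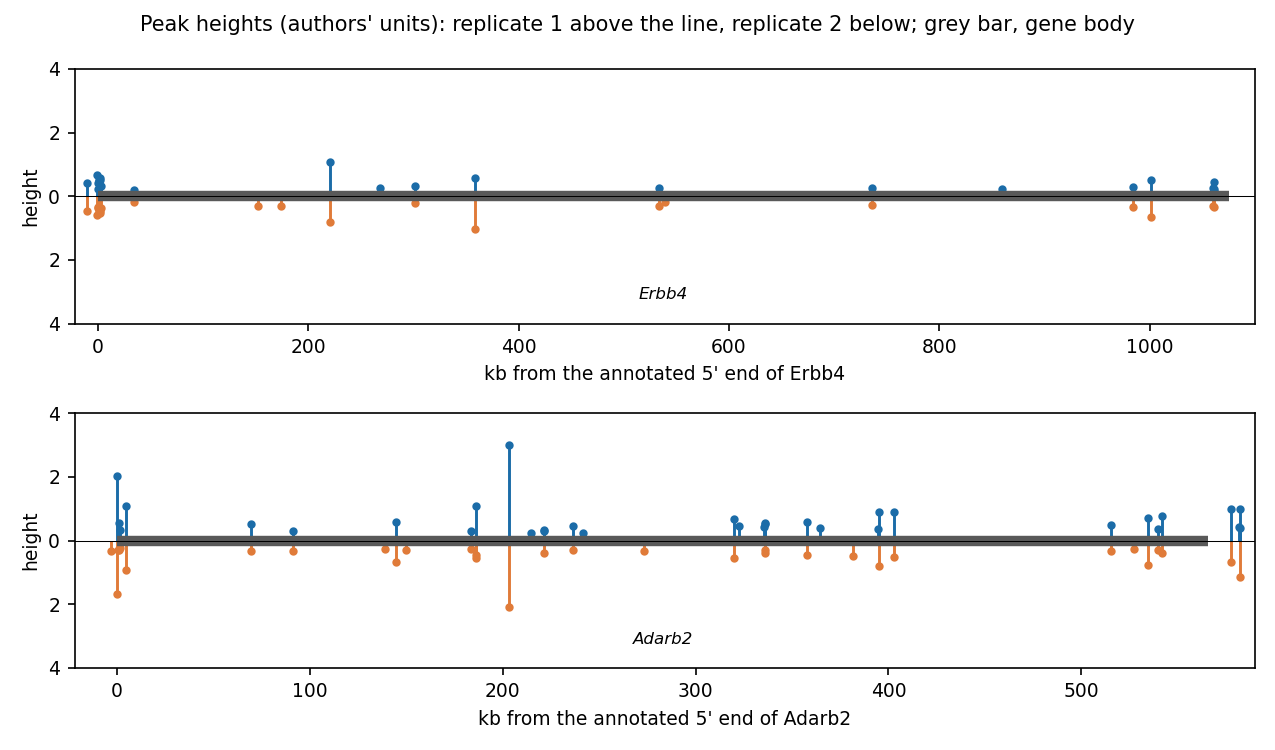
Peak heights (y axis, authors' units) against distance in kb from the annotated 5′ end of Erbb4 (top) and Adarb2 (bottom), with replicate 1 in blue above the line, replicate 2 in orange below it and the gene body as a grey bar. Erbb4 has a cluster of sites at its start and 1.08 and 0.801 at its tallest site, and Adarb2 has 2.03 and 1.67 at its promoter and 3.0 and 2.1 at its tallest intronic site.

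The 10 windows cover 2150 kb of distinct sequence and held 85 peaks in replicate 1 and 82 in replicate 2. They formed 106 distinct sites, of which 61 were pairs, 24 were unpaired peaks of replicate 1 and 21 were unpaired peaks of replicate 2. Introns held 61 sites, promoters of the 10 genes 19, flanks 18, exons 7 and the promoter of another coding gene, Actr5, held 1. Outside promoters, a site that overlapped an exon of the 10 genes by at least 1 bp was counted to exons. The windows of Adarb2 and Erbb4, the longest genes, held 69 of the 106, so counts over all sites describe mainly these. Within 5000 bp of a start lay 38 sites, 22 of them pairs, and 9 lay past the promoter limit of 1000 bp but within 2000 bp.

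The median peak density of these windows was below that of coding genes. Each of the 10 had at least 1 peak in both replicates. Of coding genes 10.6% had none in either, a share too small for 10 genes to be told from it. The median over the 10 genes was 0.451 peaks per 10 kb in replicate 1 and 0.495 in replicate 2, beside 0.792 and 0.705 over all coding genes. Gad1, Slc32a1, Dlx5 and Dlx6, 4 of the 10, lay at or above the coding median, and the last pair share their peaks. With so few genes this split is near the even one that a median gives. The median share of window bases listed at the false discovery rate limit was 1.13% in replicate 1 and 0.902% in replicate 2, beside 2.96% and 2.57% over coding genes.

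Their peaks were also lower than most. The median height was 0.505 in replicate 1 and 0.449 in replicate 2, beside 0.643 and 0.639 over all peaks. At or above those medians stood 28 of 85 peaks in replicate 1 (32.9%, exact binomial interval 23.1 to 44.0) and 25 of 82 in replicate 2 (30.5%, 20.8 to 41.6). Outside coding promoters the order was the same: the 69 peaks of replicate 1 had a median of 0.466 and the 66 of replicate 2 a median of 0.449, beside 0.584 and 0.581 over all such peaks. By gene, the median height stood above that of all peaks in both replicates for Gad1 (1.11 and 1.05) and for Dlx1 and Dlx2 (0.978 and 0.985, with few peaks). For Slc32a1 and Lhx6 it did so in a single replicate, and for the other genes in neither. The intervals treat peaks as independent.

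The pools found largely the same sites. In replicate 1, 63 of 85 peaks (74.1%, exact binomial interval 63.5 to 83.0) were overlapped by a peak of replicate 2, beside 72.3% of all peaks. In replicate 2, 64 of 82 (78.0%, 67.5 to 86.4) were overlapped, beside 84.1%. Both shares are near those of all peaks. The peaks found in 1 pool were low, with medians of 0.351 among the 22 of replicate 1 and 0.297 among the 18 of replicate 2. None of the unpaired peaks reached a height of 1, and 11 pairs did so in both replicates.

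After scaling, heights of most paired peaks differed less than 2-fold between the pools, though a smaller share did so than among all pairs. As deposited, 39 of 61 pairs were higher in replicate 1, with a median log2 of 0.16 (replicate 1 over replicate 2) beside 0.19 over all 101938 pairs. Scaled to the latter value, the median was -0.03, with an SD of 0.40 across the 61 pairs and 0.35 across all pairs, and 28 of 61 were higher in replicate 1. Within 2-fold lay 58 of 61 pairs, beside 99.4% of all pairs. The 3 beyond it were the Gad1 5′ flank (0.322 in replicate 1 and 0.594 in replicate 2), a low Dlx5 promoter peak (0.19 and 0.349) and the Erbb4 intron (0.584 and 1.03), all higher in replicate 2.

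**Figure D4:**
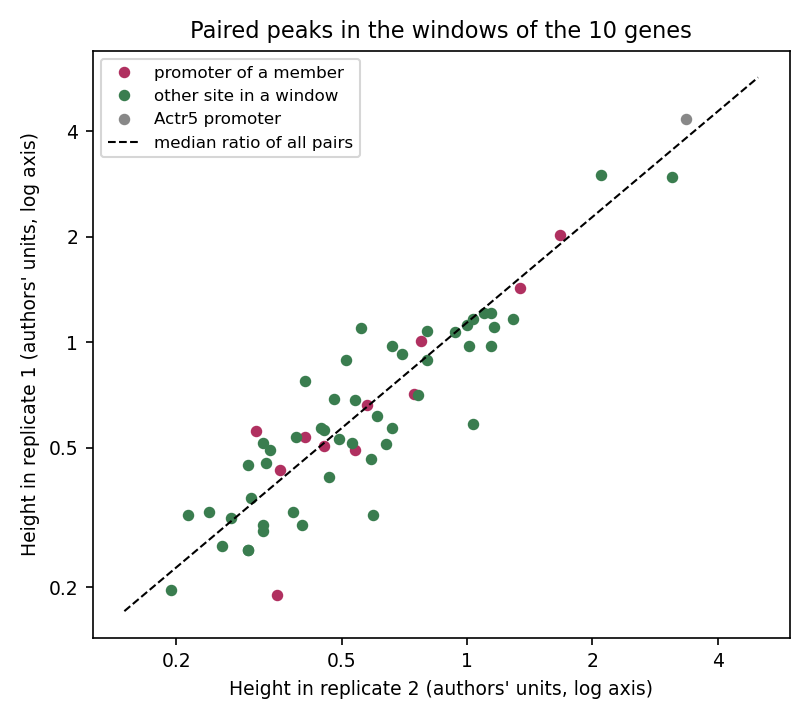
Height in replicate 1 (y axis) against height in replicate 2 (x axis) of the 61 paired peaks in the windows of the 10 genes, in the authors' units on log axes, coloured by place; the dashed line is the median ratio of all 101938 pairs. Points scatter about the line with a median scaled log2 of -0.03 and an SD of 0.40.

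Footprints were present in most of these peaks but were found again less well than the peaks were. In replicate 1, 62 of 85 peaks (72.9%) held one, beside 78.5% of all peaks, and in replicate 2, 65 of 82 (79.3%), beside 81.4%. In the windows lay 149 footprints in replicate 1 and 174 in replicate 2, and the median one was 9 bp long in both. The other replicate had an overlapping footprint for 42.3% of the first and 37.4% of the second, beside 49.1% and 52.1% of all footprints. Peaks in the windows held 1.67 footprints on average in replicate 1 and 2.06 in replicate 2, beside 2.17 and 2.36 over all peaks. These peaks were also lower than most, and the part of height in the footprint numbers was not tested. Of the pairs, 44 of 61 held a footprint in both replicates.

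Homeodomain factors of the DLX and LHX families are known to bind sequences around TAATTA. On either strand this string was found in 6 of 85 peaks of replicate 1 (7.06%, exact binomial interval 2.63 to 14.7) and 7 of 82 of replicate 2 (8.54%, 3.5 to 16.8), beside 3.76% and 3.59% of all peaks. It was present in 8 sites, 5 of them pairs, in the windows of Adarb2, Erbb4 and Slc32a1, and 3 of the Adarb2 sites overlap each other. The Adarb2 promoter sequence above holds it in lower case, so none of its bases lay in footprints of both replicates at once. A footprint of 1 replicate may still cover it. With so few peaks both intervals take in the share of all peaks.

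The other strings searched on both strands are set beside their shares of all peaks as a description, with replicate 1 before replicate 2. TTGGCA, the core of NFI sites, was in 25.9% of peaks in replicate 1 (17.0 to 36.5) and 26.8% in replicate 2 (17.6 to 37.8), beside 18.8% and 18.6%. Both intervals take in the share of all peaks. CAGCTG, an E-box, was in 21.2% and 20.7%, beside 19.9% and 19.5%, and CAGATG, the E-box of neurogenic factors, in 21.2% and 20.7%, beside 26.6% and 25.3%. The core string of MEF2 sites was in 4.71% and 3.66%, beside 2.59% and 2.53%, and AGGTCA, the nuclear receptor element, in 5.88% and 3.66%, beside 7.06% and 7.14%. TGACGTCA, the full cAMP response element, was in 0 peaks of either replicate, beside 0.695% and 0.757%; a count of 0 allows a share of up to 3.53% in replicate 1 and 3.66% in replicate 2. A match is a string in the reference sequence and does not show that a factor was bound.

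The core consensus of CTCF, the zinc finger protein that anchors chromatin loops, was searched as a string of 12 letters. It was chosen after the values were seen, so nothing is read from its counts. The string matched exactly in 7 sites, 6 of them called in both replicates, and 4 of the 7 lay in the Gad1 window. These 4 were among the 6 Gad1 pairs with a height of at least 1 in both replicates. Of all peaks of that height, 7.94% in replicate 1 and 9.61% in replicate 2 held an exact match. Wherever the peak was called, a footprint covered at least 10 bp of the match. The matches are printed on the strand they lie on, with 10 bases to each side and the match in capitals, so that their common letters can be compared.
Gad1, upstream intron (chr2:70558318-70558349, minus strand): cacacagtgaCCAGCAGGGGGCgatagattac
Gad1, promoter peak (chr2:70561189-70561220, minus strand): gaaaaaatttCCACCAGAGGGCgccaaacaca
Gad1, downstream intron (chr2:70588335-70588366, plus strand): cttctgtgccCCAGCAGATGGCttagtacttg
Gad1, 3′ flank (chr2:70620417-70620448, minus strand): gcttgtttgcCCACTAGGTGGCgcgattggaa
Dlx2, upstream flank (chr2:71548016-71548047, minus strand): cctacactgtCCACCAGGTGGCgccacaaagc
Adarb2, nearer flank (chr13:8780573-8780604, plus strand): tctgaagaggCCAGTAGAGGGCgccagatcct
Adarb2, farther flank (chr13:8785411-8785442, minus strand): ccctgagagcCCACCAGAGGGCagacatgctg

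These 7 sites included tall ones. In the Gad1 window they had heights of 2.97 and 3.11, 1.43 and 1.34, 1.12 and 1.0, and 1.21 and 1.14 in replicate 1 and replicate 2. The Dlx2 site is the peak of replicate 2 with a height of 0.956, and replicate 1 had none there. The Adarb2 sites, both beyond the 3′ end of the gene, had 0.978 in replicate 1 and 0.659 in replicate 2 for the nearer and 0.978 and 1.14 for the farther.

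The exact string was in 6 of 85 peaks of the windows in replicate 1 (7.06%) and 7 of 82 in replicate 2 (8.54%), beside 4.0% and 4.57% of all peaks. With up to 1 mismatch allowed, the shares were 10.6% in replicate 1 and 14.6% in replicate 2, beside 13.2% and 14.7% of all peaks. With up to 2 they were 28.2% and 37.8%, beside 35.3% and 36.9%. The higher share in both replicates was thus seen with exact matches only. Since the string was picked on these same peaks, nothing is read from that difference.

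Beside the other inhibitory and the excitatory genes the 10 genes had the lowest share of open promoters and the lowest median heights. The lists were chosen with earlier results of these data known, so the order is only described. No test was made, and with 5 open genes the order against the other inhibitory genes is not firm. Of all coding genes 62.6% were open in both replicates. Of 29 other genes of inhibitory neurons, 20 were open in both replicates and 6 in neither, with median promoter heights of 1.07 in each replicate among the open ones. Those of the 5 open genes here had medians of 1.01 in replicate 1 and 0.775 in replicate 2. Of 13 genes of excitatory neurons all 13 were open in both, with medians of 2.26 and 1.96. The CpG-rich genes open in both were 4 of 8 among the inhibitory identity genes, 10 of 17 among the other inhibitory genes and 7 of 7 among the excitatory genes.

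The other inhibitory genes were not all low. Abat, the transaminase that degrades GABA and is also made outside neurons, had 6.08 in replicate 1 and 4.53 in replicate 2. Nr2f2, a factor of the caudal ganglionic eminence, had 3.34 in replicate 1 and 3.2 in replicate 2. Lhx8, Nkx2-1, Npas1 and Sp9 were among the 6 with no promoter peak in either replicate. Peak density followed the same order, with 0.451 and 0.495 peaks per 10 kb for the 10 genes, 0.855 and 0.693 for the other inhibitory genes and 1.86 and 1.34 for the excitatory genes.

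**Figure D5:**
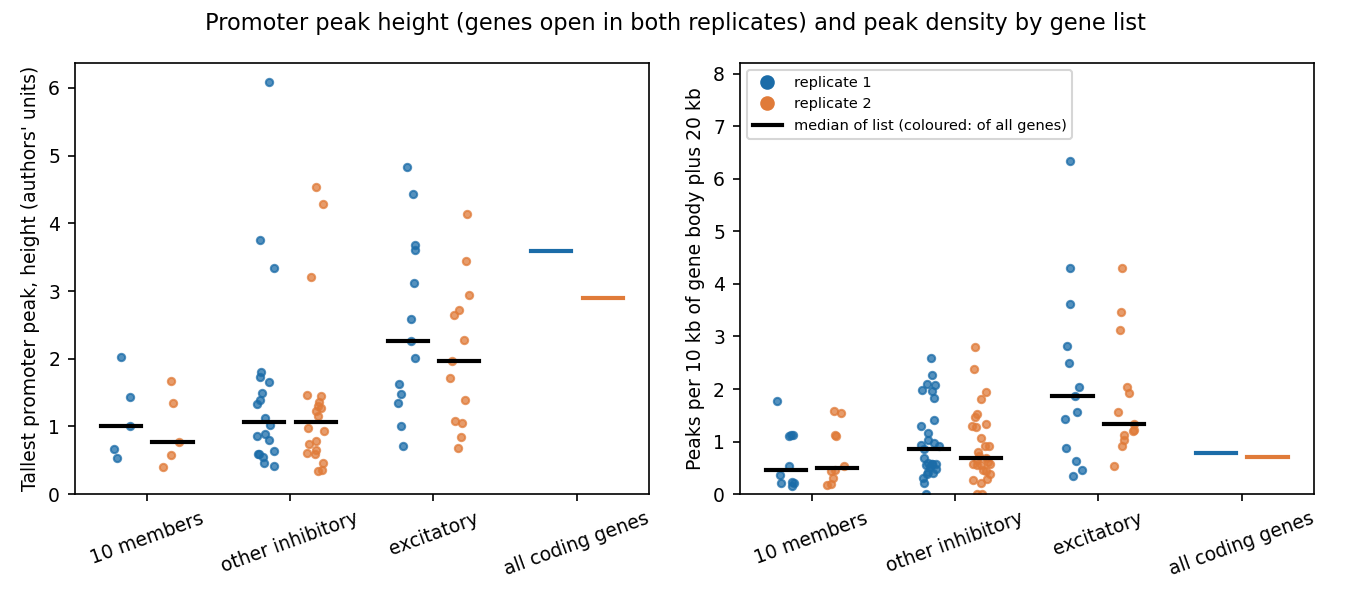
Tallest promoter peak of genes open in both replicates (left, height in the authors' units) and peaks per 10 kb of gene body plus 20 kb (right) for the 10 genes, other inhibitory genes and excitatory genes, with replicate 1 in blue, replicate 2 in orange, 1 point a gene and black bars at list medians; coloured bars are the medians of all coding genes. The 10 genes have median heights of 1.01 and 0.775, the excitatory genes 2.26 and 1.96.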

How the data were processed

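DNase-seq of 2 replicates was analysed from the peaks, footprints and false discovery rates the authors deposited per sample. Per the labels the assembly was mm10; no aligner or caller, and no version of either, is given in the sources used here. The deposited peak value is a height (unit: signal), whose scale is not stated; 100% of heights under 200 steps were whole multiples of a step within 0.1 step. The authors deposited 2 peak lists per sample, and the longer was used. The deposited false discovery rates (unit: q-value) list only intervals at 0.05 or less, and the footprint files hold the constant 0.01 throughout (taken for a p-value cutoff), which gives no ranking of footprints.

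Gene models were GENCODE M21, gene bodies from the full set and coding starts from the basic set. Sequence was GRCm38 (RefSeq), and 0 peaks ran past its chromosome ends. RefSeq promoter entries were matched for 8 of the 10 genes; Dlx5 and Dlx6 were not matched. Overlap meant 1 bp or more, and pairs were reciprocal best overlaps between the replicates. In the longer list 4120 peaks of replicate 1 and 3736 of replicate 2 overlap another of the same list and were counted as deposited. Shares have exact (Clopper-Pearson) 95% intervals, which treat peaks as independent. Motifs were searched as 11 strings without mismatches, with N in a string taken as any base. Python 3.11.15, numpy 2.4.6, pandas 2.3.3, scipy 1.17.1, matplotlib 3.10.9 and samtools 1.23.1 were used, and the functions were tested on simulated data.

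The 10 genes and the lists were chosen with earlier results of these data known. All 10 are named, with the tallest pair and the peak nearest a start of each; of the other inhibitory genes, the 4 with the tallest promoter peak and up to 4 with none; some genes that this takes are not reported here. With 1 group there was no condition to test and no p-value was computed. Whether reads of both parental genomes of the cross mapped equally well was not analysed here. Alternatives covered the peak list, flank, promoter window, start sites, overlap, scaling, motif window and each replicate alone.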

Additional observations from a re-analysis of the deposited data

How the results depend on the processing

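Of 44 alternatives, 31 stayed close to the reported value and 13 moved it further. Close meant counts within 1.5 times, the log2 ratio of pairs within its counting SD of 0.22, and other values within the SD of the replicates. A single replicate always lies within that SD of the mean of both. For density, listed bases, footprints and TAATTA each replicate alone was therefore bound to count as close, and is no check. With the shorter peak list, peaks in the windows numbered 39 in replicate 1 and 35 in replicate 2 (85 and 82 with the longer), median density was 0.177 per 10 kb (0.473), 89.0% of peaks held a footprint (76.1%) and 9.56% held TAATTA (7.8%); the shorter list keeps peaks at lower false discovery rates. Median density was 0.376 with flanks of 10 kb, 0.576 over gene bodies alone and 0.332 with peaks at or above the median height. The share of replicate 1 peaks found in replicate 2 (74.1%) was 78.8% over gene bodies, 96.4% for peaks at or above the median height and 58.8% when each peak of a pair had to be covered over at least 50% of its length. With flanks of 10 kb the listed bases were 0.72% (1.02%), and TAATTA in the central 200 bp was in 6.62% of peaks; for these the cause was not tested. The median scaled log2 of pairs was -0.02 to -0.08 under other flanks, overlaps and lists and 0.16 without scaling.

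Genes with a promoter peak in both replicates numbered 6 within 2000 bp of a start, 5 within 500 bp, 4 with the 5′ end of the gene alone and 4 with the shorter list. Each replicate alone gave 6 to 6 open genes, densities of 0.451 to 0.495, listed bases of 0.902 to 1.13%, footprints in 72.9 to 79.3% and TAATTA in 7.06 to 8.54% of peaks. No paired analysis was possible because the samples form 1 group. A pair of median height has a counting SD of 0.22 on the log2 scale. That is 1 SD of counting error alone, so a difference in 1 pair must be well above it to be told from such error. Over all pairs the scaled log2 had an SD of 0.35.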
